A study of Mus musculus with 2 samples.

Results

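Integrins are the receptors by which cells hold on to the extracellular matrix, and the 9 genes described here encode the alpha subunits Itga1, Itga2, Itga3, Itga5, Itga6 and Itgav and the beta subunits Itgb1, Itgb3 and Itgb5. They were taken by gene symbol from 55487 named genes, each symbol had a single row in the files, and 8 of the 9 were measured, which here means that either library gave at least 1 TPM. The RNA came from LPC-HRas, a mouse line that the labels describe as hepatocellular carcinoma cells, infected with a lentivirus for shRFP, the control hairpin, or for shETV4, which is directed at Etv4; that gene encodes a transcription factor of the ETS family. Both groups are the same cell line and each is 1 library, so the differences have no replicate behind them and no p-value can be given. The value columns are named shRFP_2 and shETV4_2, and the sources used here do not say whether the ending marks a further replicate or run. The sources used here do not say how many hairpin sequences shETV4 stands for, or whether infected cells were selected.

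An integrin is a pair of 1 alpha and 1 beta chain. The alpha chain sets most of the ligand choice: collagens for the Itga1 and Itga2 products, laminins for those of Itga3 and Itga6, and ligands with the Arg-Gly-Asp (RGD) motif, such as fibronectin and vitronectin, for those of Itga5 and Itgav. The Itgb1 product pairs with all of these alpha chains, while those of Itgb3 and Itgb5 pair with the alpha-v chain. Inside the cell the beta tail binds talin and kindlin, which switch the receptor on and tie it to actin through the adhesion plaque.

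Values are TPM, a measure of transcript abundance per length that is scaled to 1 total in each library, so levels of different subunits can be set side by side within a library. The files keep no read counts, so depth and counting error are unknown. A difference is the shETV4 value minus the shRFP value on the log2(TPM + 1) scale, which shrinks the change of weakly expressed genes, and 2-fold on that scale was the threshold for calling a gene higher or lower. Folds beside TPM levels are plain ratios. The targeted gene, Etv4, was at 73.2 TPM (shRFP) and 16.2 TPM (shETV4).

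The differences of the integrin genes lay on both sides of 0, and most were within 2-fold. Of the 8 measured subunits 1, Itga3, was called lower, none was called higher and 7 lay within 2-fold, against a background of 7.06% of all 12968 measured genes called lower and 3.39% called higher. Their median difference was 0.01, with 4 members above 0 and 4 below, and the median of all measured genes was -0.10. Itga5 (0.06) and Itga6 (-0.03) lay near 0. With a filter at 5 TPM, which removes Itga1 and Itgb3, the median of the members was -0.31. At a threshold of 1.5-fold, Itga3, Itgb1 and Itgav were called lower and none higher, where 20.0% of all measured genes were lower and 8.64% higher. Total integrin RNA over the 9 genes was 612.8 TPM (shRFP) and 494.8 TPM (shETV4). In a bulk sample fewer cells of a type and less RNA per cell cannot be told apart.

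**Figure D1:**
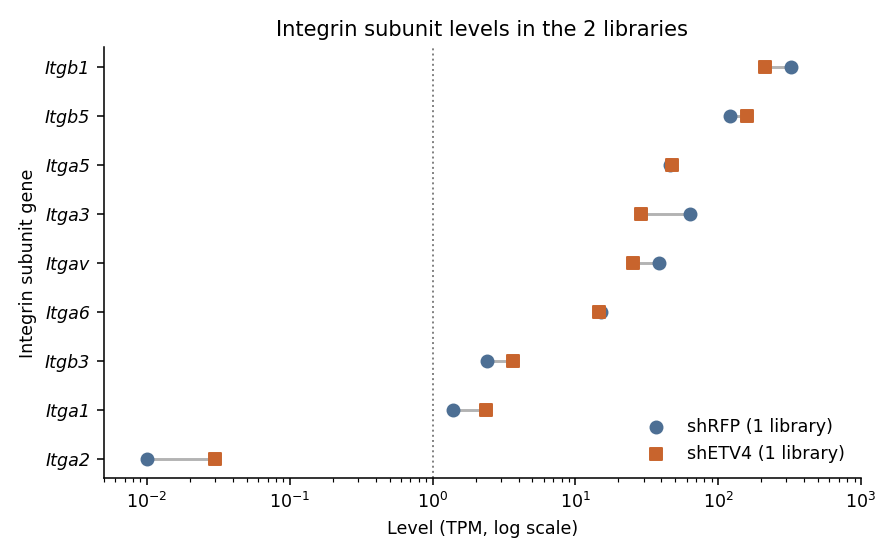
TPM of each integrin subunit gene on a log axis, with circles for the shRFP library and squares for the shETV4 library, 1 library each; the dotted line marks 1 TPM. Itgb1 and Itgb5 were the most abundant in both libraries, and Itga3 shows the widest gap among the subunits above the line, from 63.7 to 28.6 TPM.

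Itga3 (ENSMUSG00000001507; GRCm38 chromosome 11, 95044474 to 95076801, minus strand) encodes the alpha-3 chain, which with beta-1 forms a main receptor for laminins of basement membranes. It measured 63.7 TPM (shRFP) and 28.6 TPM (shETV4), 2.23-fold lower, a difference of -1.13. With shRFP it was the most abundant alpha subunit, above Itga5 by a factor of 1.39, and with shETV4 it was second, at 0.598 of the level of Itga5. Its difference held rank 594 from the lowest among the measured genes, with 4.57% of them lower. Its exons overlap no other annotated gene's exons.

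Itga6 (ENSMUSG00000027111; chromosome 2, 71745616 to 71858416, plus strand), the other laminin-binding alpha gene among the members, was at 15.0 and 14.7 TPM, a difference of -0.03. The alpha-6 chain pairs with beta-1 and, in hemidesmosomes of epithelia, with beta-4. The levels of these laminin-binding members thus lay closer together in the knockdown library: Itga3 was 4.24 times Itga6 with shRFP and 1.95 times with shETV4. Summed, Itga3 and Itga6 were at 78.7 TPM (shRFP) and 43.3 TPM (shETV4). That sum leaves out Itga7, a laminin receptor chain that is not a member and is described below.

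The RGD-binding alpha genes also differed from each other. Itga5 (ENSMUSG00000000555; chromosome 15, 103344286 to 103366763, minus strand), whose product is the classical fibronectin receptor with beta-1, was at 45.9 TPM (shRFP) and 47.8 TPM (shETV4), a difference of 0.06. Itgav (ENSMUSG00000027087; chromosome 2, 83724397 to 83806916, plus strand), the shared partner of several beta chains, was at 38.5 and 25.3 TPM, 1.53-fold lower, a difference of -0.59. Itga5 went from 1.19 to 1.89 times the level of Itgav. Exons of other genes cover 5.90% of the exonic bases of Itgav, and the sources used here do not say whether reads were counted by strand.

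The collagen-binding alpha genes were low in both libraries. Itga1 (ENSMUSG00000042284; chromosome 13, 114953096 to 115101964, minus strand), a collagen receptor chain common on mesenchymal cells, was at 1.39 and 2.36 TPM, a difference of 0.49. Itga2 (ENSMUSG00000015533; chromosome 13, 114833081 to 114932100, minus strand), its relative found on epithelia and platelets, was at 0.01 and 0.03 TPM and is the single member below 1 TPM in both. The files give 2 decimals, so these Itga2 values are 1 and 3 of the smallest steps they can show, and no fold is given. Together the collagen-binding pair held 1.40 TPM (shRFP) and 2.39 TPM (shETV4), far under the laminin-binding and RGD-binding pairs.

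Itgb1 (ENSMUSG00000025809; chromosome 8, 128685654 to 128733200, plus strand), the common partner chain, was the most abundant integrin gene at 324 TPM (shRFP) and 212 TPM (shETV4). It was 1.53-fold lower with shETV4, a difference of -0.61, and its rank by level among measured genes went from 461 to 693. Against the summed alpha members, of which it is the shared partner, it stood at 1.97 times with shRFP and 1.79 times with shETV4, since the summed alpha members were lower as well, by 1.39-fold.

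Itgb5 (ENSMUSG00000022817; chromosome 16, 33829665 to 33949338, plus strand), a vitronectin receptor chain that pairs with alpha-v, was the second most abundant, at 122 TPM (shRFP) and 160 TPM (shETV4). It was 1.32-fold higher, a difference of 0.39, while its partner Itgav was lower, and the ratio of Itgb5 to Itgav went from 3.15 to 6.34. Itgb3 (ENSMUSG00000020689; chromosome 11, 104608000 to 104670476, plus strand), another alpha-v partner and a chain of the platelet fibrinogen receptor, was at 2.40 and 3.66 TPM, a difference of 0.45. Of these alpha-v partners Itgb5 thus lay far above Itgb3, by 50.6 times with shRFP and 43.7 times with shETV4. Itgb1, whose product also pairs with alpha-v, lay above both in each library.

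The make-up of the integrin RNA pool therefore differed between the libraries. Among the alpha members, Itga3 held 38.7% of the summed TPM with shRFP and 24.1% with shETV4, while Itga5 went from 27.9% to 40.2%. Itgav held 23.4% and 21.3%, and Itga6 9.14% and 12.4%. Among the beta members, Itgb1 held 72.3% with shRFP and 56.5% with shETV4 and Itgb5 27.1% and 42.6%, so the ratio of Itgb1 to Itgb5 was 2.67 and then 1.33. The summed alpha members were at 164.6 and 118.7 TPM, and without Itga3 at 100.9 and 90.1 TPM. The summed beta members were at 448.2 and 376.1 TPM. These are shares of RNA without adjustment for base composition, and the amount of each receptor at the cell surface was not measured.

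**Figure D2:**
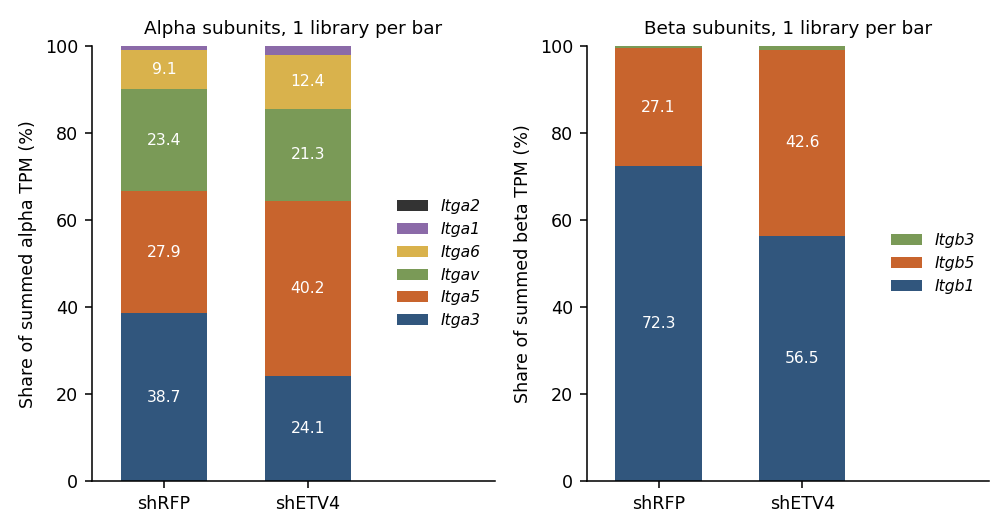
Share of the summed TPM, in percent, held by each alpha subunit (left) and each beta subunit (right), 1 bar per library. With shETV4 the Itga3 share was 24.1% against 38.7% with shRFP, and the Itgb5 share 42.6% against 27.1%; shares under 5% are drawn without a number.

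Base composition moved with the differences in these libraries and touches the members unequally. Among genes whose transcripts have a GC content within 1 percentage point of that of Itga3 (57.3%), the median difference was 0.14 and 1.68% of 1188 genes were called lower, so Itga3 lay far below genes of like composition. Itgb1, at 45.0% GC, lay close to its own, with a median of -0.46 over 1243 genes, of which 11.3% were called lower. Itga1, at 43.7%, lay above its own, with a median of -0.57 over 1014 genes, of which 1.08% were called higher. After subtraction of the running median for GC content, Itga3 was at -1.26, Itgb1 at -0.14 and Itga1 at 1.07. On that scale 1 of the 8 measured members, Itga1, was called higher and 1, Itga3, lower, against 3.99% and 2.31% of all genes. Itga1 reached this from TPM levels below 3, where the size of a difference depends on the pseudocount. Its unadjusted difference was 0.49, and the subtracted trend of -0.57 came from measured genes of all levels. The remaining members stayed within 2-fold after adjustment, Itgav at -0.46, Itga5 at -0.09, Itga6 at 0.12, Itgb5 at 0.30 and Itgb3 at 0.46. With the GC content of the longest transcript in place of the median, Itgav was at -0.07. The shares and ratios of the RNA pool given above carry no such adjustment. Itgb1 and Itgb5 lay further apart before it, at -0.61 and 0.39, than after it, at -0.14 and 0.30.

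**Figure D3:**
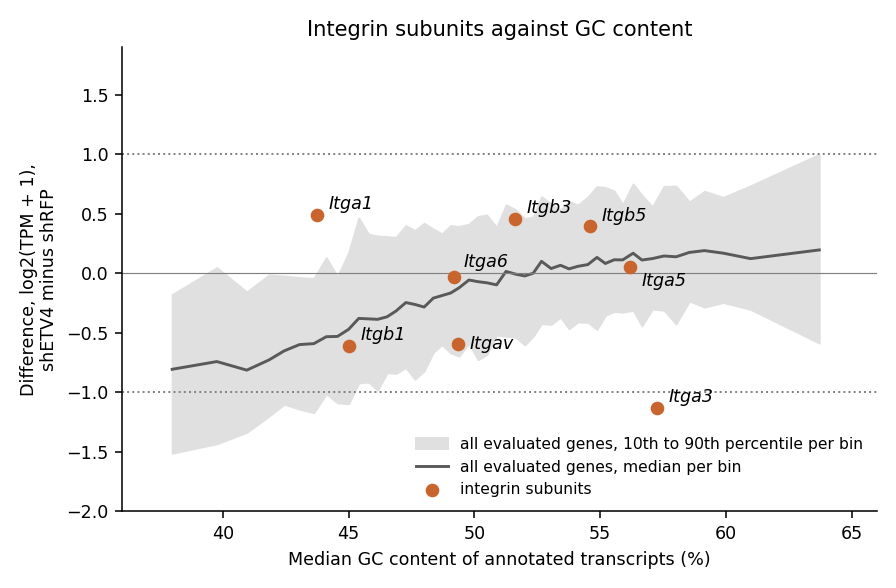
Difference of each measured integrin subunit on the log2(TPM + 1) scale against the median GC content of its transcripts, with the median (line) and the 10th to 90th percentile (band) of all measured genes in 50 bins of GC content; dotted lines mark 2-fold. Itga3 lies below the band and Itga1 above it, and the other 6 subunits lie within it.

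The promoter sequences are shown because the hairpin targets an ETS factor, and ETS factors share the core motif GGAA. RefSeq windows on GRCm38.p6, here the 250 bases before an annotated start, were found for 7 of the 9 members, Itga3 having 2 starts, and none for Itga6 and Itgb3. The windows below are those of Itga3, the member past 2-fold, and of Itgb1 and Itgb5, the most abundant members, which differed in opposite directions. They were picked partly by their differences, so their motif counts cannot be set against those differences. Each reads 5′ to 3′ on the strand of the gene, and capitals mark GGAA on either strand, which appears as GGAA or TTCC. The outer Itga3 start has its window at chr11:95076715-95076964 and the inner at chr11:95069199-95069448, both on the minus strand. The Itgb1 window is chr8:128685404-128685653 and the Itgb5 window chr16:33829415-33829664, both on the plus strand.
Itga3 outer start: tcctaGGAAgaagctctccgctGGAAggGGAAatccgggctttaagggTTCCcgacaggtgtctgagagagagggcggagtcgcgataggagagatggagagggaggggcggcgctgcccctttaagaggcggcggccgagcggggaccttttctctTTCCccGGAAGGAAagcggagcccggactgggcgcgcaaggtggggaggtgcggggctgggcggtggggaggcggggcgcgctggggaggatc
Itga3 inner start: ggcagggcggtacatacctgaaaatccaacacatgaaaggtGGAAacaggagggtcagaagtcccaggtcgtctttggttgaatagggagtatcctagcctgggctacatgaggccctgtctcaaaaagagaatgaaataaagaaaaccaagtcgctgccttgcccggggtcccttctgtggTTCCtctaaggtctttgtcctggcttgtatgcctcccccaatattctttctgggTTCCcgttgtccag
Itgb1: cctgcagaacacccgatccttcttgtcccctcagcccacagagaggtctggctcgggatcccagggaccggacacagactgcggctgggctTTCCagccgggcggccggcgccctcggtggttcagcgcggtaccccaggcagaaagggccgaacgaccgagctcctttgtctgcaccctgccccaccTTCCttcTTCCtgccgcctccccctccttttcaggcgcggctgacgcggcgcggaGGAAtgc
Itgb5: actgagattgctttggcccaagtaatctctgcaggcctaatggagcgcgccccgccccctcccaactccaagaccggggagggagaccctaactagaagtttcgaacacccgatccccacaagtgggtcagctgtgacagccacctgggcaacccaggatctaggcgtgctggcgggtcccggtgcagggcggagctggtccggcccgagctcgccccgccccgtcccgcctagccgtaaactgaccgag

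The outer Itga3 window held 7 GGAA cores and the inner window 3, the Itgb1 window 4 and the Itgb5 window none. Over all 32851 windows of that length the median was 3 cores, 93.4% held at least 1 and 3.82% held 7 or more. The cutoff of 7 was the count of the outer Itga3 window itself, the larger of its 2. That share therefore describes the windows and tests nothing about Itga3. Longer forms that contain GGAA were searched on both strands as well. AGGAAG occurred once in the outer Itga3 window and at 2 places in that of Itgb1, and 29.5% of all windows held it. CCGGAA occurred once, in the outer Itga3 window, and 12.0% of all windows held it. Of the other members, Itga5 had 8 cores, Itga1 and Itgav 4 each and Itga2 1, and AGGAAG occurred in the windows of Itga1 and Itgav. The RefSeq start used for Itga5, at 103366791, lies just upstream of the GENCODE bounds given above for that gene. Whether the number of cores goes with the difference of a gene was not tested. A match describes the letters of the window only, since no binding was measured here.

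The 17 other integrin subunit genes of the mouse added little RNA: the 9 members held 94.9% of the summed TPM of all 26 subunits with shRFP and 94.8% with shETV4. Of these 17, 5 were measured and none was called, with a median difference of -0.44. Itga7, a laminin receptor chain of muscle, was at 10.9 and 7.76 TPM, and Itga11, a collagen receptor chain of fibroblasts, at 6.77 and 4.13 TPM. Itga11 was thus above Itga1 and Itga2 as the most abundant collagen-binding alpha gene in both libraries. Itga2b, the platelet partner of Itgb3, was at 7.26 and 4.52 TPM. Itgb7, a chain of lymphocyte homing receptors, was at 4.57 and 7.38 TPM, and Itgb4, the hemidesmosome partner of Itga6, at 0.70 and 1.03 TPM. The leukocyte chain Itgb2 was at 0.11 and 0.42 TPM, and the further alpha-v partners Itgb6 and Itgb8 were at 0.20 TPM or less in both libraries.

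Markers of other cell types were looked at because several integrins define them. None of 8 hepatocyte genes reached 1 TPM in these cells, labelled hepatocellular carcinoma, and Alb was listed at 0 in both libraries. None of 8 leukocyte genes did either, with a summed level of 0.21 TPM (shRFP) and 0.57 TPM (shETV4) and Ptprc at 0 and 0.03 TPM. Of 8 endothelial genes 1 did, Egfl7 at 13.5 and 18.8 TPM, with Pecam1 at 0.43 and 0.66 TPM. Of 6 platelet genes 2 did, Itga2b and Pf4 (1.34 and 2.01 TPM), and the list summed to 9.52 and 6.92 TPM. Of 8 liver progenitor and biliary genes 4 reached 1 TPM, led by Spp1 and Dlk1 (205 and 314 TPM). That list summed to 684.7 and 872.8 TPM, and its Epcam, Krt7, Prom1 and Afp stayed at 0.62 TPM or less. Of 8 stellate cell and fibroblast genes 4 reached 1 TPM, while Lrat, Reln, Des and Rgs5 stayed at 0.64 TPM or less. These 8 summed to 1690 and 1281 TPM, of which Acta2, at 1256 and 655 TPM, made up most. Acta2 was the only measured gene of the stellate cell and fibroblast list below 0. Pdgfrb (59.5 and 77.2 TPM), Dcn (6.81 and 9.76 TPM) and Col3a1 were above 0, and the list median was 0.42. The part of these in the integrin differences was not tested.

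Among 12 activators and inhibitors of integrins, 10 were measured, 3 were called lower and none higher, with a median of -0.50, where 7.06% of all measured genes were called lower and 3.39% higher and their median was -0.10. Fermt2, which encodes the kindlin of adherent cells, was at 55.4 and 25.4 TPM, and Rap1b, a small GTPase that brings talin to integrins, was at 65.2 and 28.9 TPM. Its relative Rap1a measured 23.8 and 8.44 TPM. All 3 came inside 2-fold after GC adjustment, at -0.71, -0.56 and -0.63, where Itga3 was at -1.26. None of the list was called lower on that scale, against 2.31% of all genes, and the list median was -0.41. Tln1, the main talin gene, was at 149.5 and 82.3 TPM, a difference of -0.85 and of -0.90 after adjustment. Flna, a filamin that competes with talin for the beta tail, was the most abundant of the list at 1371 and 1174 TPM.

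Of 28 adhesion plaque genes 27 were measured, 2 were called lower and 1 higher, with a median of -0.19; these counts are near the shares of all measured genes, 7.06% and 3.39%. Lims1, which encodes PINCH1, the partner of integrin-linked kinase, was at 19.6 and 4.76 TPM, and the adaptor gene Crk at 48.1 and 15.1 TPM. Both were past 2-fold after GC adjustment too, at -1.28 and -1.68. They were the 2 of 27 called lower on that scale, where 2.31% of all genes were. Tns2, a tensin that binds beta tails, was higher, at 28.6 and 69.2 TPM. It was at 1.09 after adjustment, the 1 called higher, where 3.99% of all genes were. The actin cross-linkers were the most abundant plaque genes, with Actn4 at 359 and 314 TPM and Actn1 at 226 and 176 TPM.

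Of 14 genes of integrin traffic and processing 12 were measured and 1 was called lower, Vps35 of the retromer, at 89.2 and 38.1 TPM and -0.54 after GC adjustment. That count too is near the 7.06% of all measured genes called lower, and the list median was -0.23. Arf6, which returns integrins to the surface, was at 119 and 133 TPM, and Snx17, which does so too, at 114 and 117 TPM. All 13 membrane partners were measured, with 10 above 0 and a median of 0.19. Cav1, the caveolin that binds alpha chains, was the 1 called lower, a count also near that share, at 130.0 and 56.8 TPM. It was the 1 called lower after adjustment too, at -1.20, where 2.31% of all genes were. Cd63, a tetraspanin, was at 667 and 926 TPM and Bsg, basigin, at 632 and 709 TPM. By difference, the genes of these lists at 5 TPM or more that lay nearest to Itga3 were Rap1b (-1.15), Fermt2 (-1.09) and Cav1 (-1.18), within 0.053 of it. With 2 libraries this likeness says only that the ratios were alike.

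The ligand genes were described by the receptor class that binds them, and their counts too stand against the 7.06% lower and 3.39% higher of all measured genes. Of 11 laminin chains, ligands of the alpha-3 and alpha-6 receptors, 6 were measured, none was called lower and 5 lay below 0, with a median of -0.25. Lamc1, the most abundant, was at 192.6 and 187.3 TPM, and Lamb1, the next, at 100.3 and 73.8 TPM. Lama4, a chain of vascular and mesenchymal basement membrane, was called higher from a low level, at 0.47 and 3.95 TPM. Lama5, the lowest of the list by difference, was at 78.45 and 46.5 TPM, at -0.74 and at -0.89 after GC adjustment. All 10 collagen chains were measured and 1 was called higher, Col6a2 at 38.3 and 82.8 TPM, inside 2-fold after GC adjustment at 0.93. Col3a1 was at 367.5 and 538.1 TPM and Col1a1 at 200.4 and 229.4 TPM, the most abundant of the list. Of 17 RGD ligands 14 were measured and none was called, with a median of 0.06. Fn1, fibronectin, was at 729 and 982 TPM and Spp1, osteopontin, at 423 and 476 TPM. Vtn, vitronectin, a ligand of the alpha-v receptors, was at 0.30 TPM in the control library and was listed at 0 in the other.

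**Figure D4:**
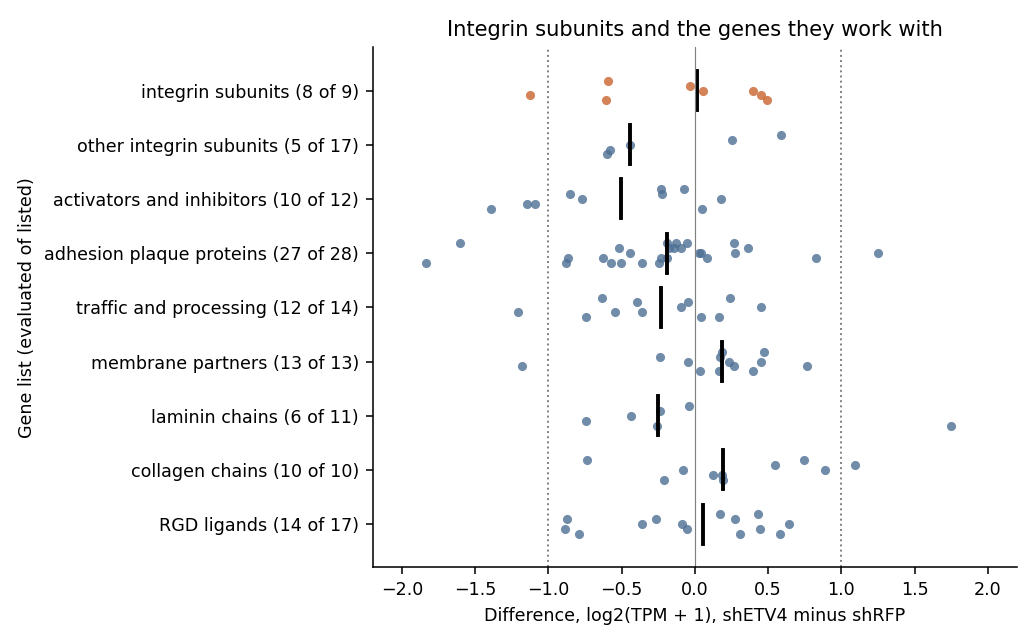
Difference of each measured gene (points) on the log2(TPM + 1) scale in the integrin subunits and 8 lists of genes that work with them, with the list median as a black bar and dotted lines at 2-fold; the number measured of the number listed stands beside each name. The integrin subunits have a median of 0.01, and the activators and inhibitors the lowest, at -0.50.

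The choice of pseudocount, scale and GC adjustment moved the members by different amounts. Itga3 ran from -1.27 to -1.01 over 7 alternatives, and Itgb5 and Itgb3 stayed above 0 in all of them, at 0.24 to 0.52 and 0.23 to 0.59. Among these alternatives, summing the rows of a symbol could move no member, since each has a single row. Itga1, at low TPM, ran from 0.20 to 1.09. Itgb1 ran from -0.61 to -0.14 and Itgav from -0.61 to -0.07, the values nearest 0 being those with a GC adjustment. Itga5 and Itga6 had no direction that held across the settings.

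**Figure D5:**
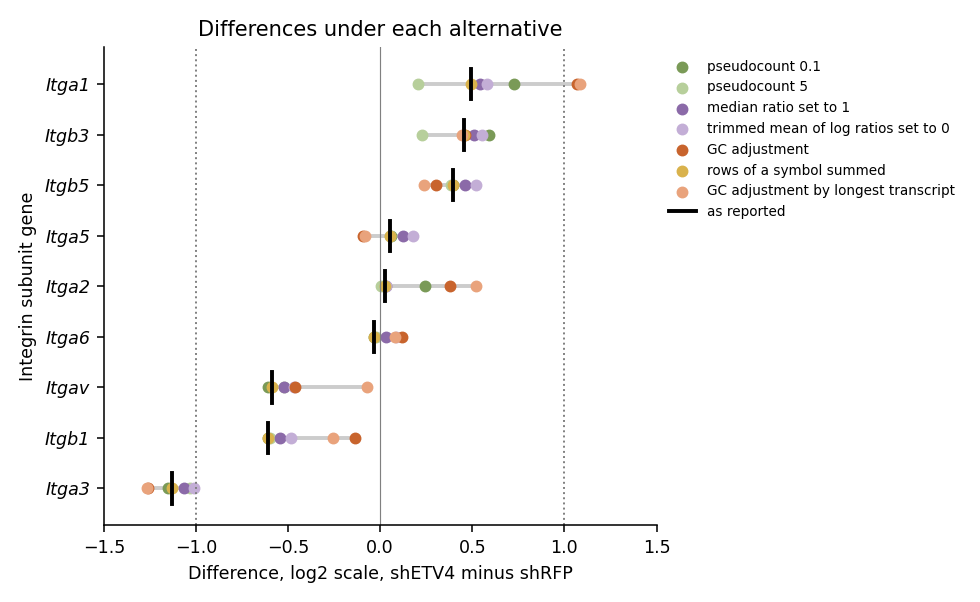
Difference of each of the 9 members on the log2 scale as reported (black bar) and under 7 alternatives (points), with the grey line spanning them and dotted lines at 2-fold. Itga3 stays beyond the lower line under every one of them, from -1.27 to -1.01, and Itga1 crosses the upper line under the GC adjustments.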

How the data were processed

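Per the labels' protocols, libraries were prepared from total RNA with a TruSeq kit. The authors deposited TPM rounded to 2 decimals; the headers name no unit, and the columns sum to 1000000 and 999870. HISAT2, RSEM and GRCm38.p4 are named, without roles, in the submitters' processing notes; the annotation, strand setting and filters are unknown here. Groups came from the treatment labels. Of 55640 records, 153 without a symbol were left out.

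From these values the difference was computed with a pseudocount of 1 across all genes with at least 1 TPM in either library. GC content and coordinates came from GENCODE M21 on GRCm38, matched by gene ID for 99.5% of named genes, and promoter windows from RefSeq on GRCm38.p6. No table of protein sequences was used here. The GC adjustment subtracts the median difference over 50 bins of transcript GC content (the median over a gene's transcripts). Alternatives changed the pseudocount, scale (the median ratio over genes reaching 5 TPM in both libraries, or a mean of log ratios without the outer 30% of ratios and the outer 5% of means on either side), filter, threshold, gene set and treatment of several rows for a symbol. With 1 library per group nothing was tested. The members and lists were chosen with earlier results of these data known. Besides the members and Etv4, the text names the other subunits at 1 TPM or more and the markers Alb, Ptprc and Pecam1. From each list it names up to 4 genes past 2-fold in each direction and the 2 most abundant. It also names the 3 nearest to the member with the largest difference. Itgb2, Itgb6, Itgb8, Tln1, Pdgfrb, Dcn, Vtn, Itgb1bp1 and Itgb3bp were named after their values were seen. So were Lama5, Epcam, Krt7, Prom1, Afp, Lrat, Reln, Des and Rgs5. Python 3.11.15, numpy 2.4.6, pandas 2.3.3 and matplotlib 3.10.9 were used, and the calculation was tested on simulated data.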

Additional observations from a re-analysis of the deposited data

How the results depend on the processing

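The alternatives include summing the rows of a symbol, which could move no member since each has a single row. Itga2, below 1 TPM in both libraries, is counted as well. Of 63 single differences of the members under alternatives, 61 kept their side of 2-fold. Both exceptions were Itga1, at 1.07 with the GC adjustment and 1.09 with that adjustment by the longest transcript, an alternative chosen after seeing the data; each made 1 member called higher. Itga3 ranged from -1.27 to -1.01. Itgav went from -0.46 to -0.07 when the GC content of the longest transcript replaced the median, and 6 differences changed sign, all of Itga5 and Itga6, within 0.12 of 0. Members called lower were 3 at 1.5-fold and 0 at 3-fold. The median of the members was 0.13 with the trimmed mean of log ratios (-0.12) set to 0 and -0.31 with a filter at 5 TPM, which removes Itga1 and Itgb3. Over all genes, calls higher and lower were 676 and 1461 with pseudocount 0.1, 167 and 267 with pseudocount 5, 1121 and 2593 at 1.5-fold and 162 and 162 at 3-fold. Calls higher were 252 with the 5 TPM filter and 250 for protein-coding genes. Calls lower were 299 with the GC adjustment and 303 by the longest transcript. The calls as reported were 439 and 916. No paired analysis was possible because each group has 1 library. Depth is unknown, so how well Itga1, Itga2 and Itgb3, the members under 5 TPM, were measured cannot be given.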

Other observations

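Itgb3bp, whose symbol reads like an integrin gene but whose product is known as a centromere protein, was at 6.25 TPM (shRFP) and 0.99 TPM (shETV4), a difference of -1.87 and of -1.07 after GC adjustment. It is no integrin subunit and entered none of the counts above. Itgb1bp1, which encodes an inhibitor that binds the beta-1 tail, was at 45.7 and 38.8 TPM, a difference of -0.23.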
